A study of Mus musculus with 15 samples.

Results

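Gene expression in 4T1 cells treated with a blueberry extract (BLU) was compared with that in untreated 4T1 cells. The comparison was chosen by the labelled treatment alone and took in the 3 BLU columns and the 3 untreated columns of the count table, 6 of 15 in all. The labels number the 3 columns of a condition as separate samples, but the study's supplement lists 1 sequenced library per condition with 3 read subsets drawn from it, and the columns differed by less than sampling noise. They were therefore treated as 1 library, and 2 of the 5 libraries of the series were set side by side. The other 3 libraries came from cells treated with blackberry extract (BLA) or with gold nanoparticles made with each extract (BLA-A and BLU-A), and they are used here only to place a BLU level. 4T1 is an established BALB/c mouse line of mammary carcinoma that lacks the hormone receptor and Erbb2 dependence of other breast cancers, and it stands in for triple-negative disease. No gene was altered and no transgene was carried by any group. The cells were grown in RPMI medium with fetal bovine serum, and the extract, made from freeze-dried fruit powder with aqueous ethanol, was added 24 h after seeding at the single concentration used for each treatment. Untreated cells are the only control among these libraries, and cells given the solvent alone were not analysed here. The labels give each column a batch date of its own without saying what was done on that day, so batch and treatment cannot be told apart.

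Blueberry fruit is rich in anthocyanins, flavonols and chlorogenic acid. Polyphenols of this kind are known as ligands or modulators of the aryl hydrocarbon receptor, as triggers of the NRF2 antioxidant program and as inhibitors of several kinases, and in cultured tumor cells they are studied for effects on the cell cycle and on survival. RNA in this study was freed of ribosomal RNA and not selected for poly(A), and reads were counted over whole genes with their introns. Levels here therefore include unspliced nuclear RNA, noncoding RNA and the histone messages that carry no poly(A) tail.

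The averaged libraries held 26849700 counts in BLU and 25778154 in untreated cells, against 25613778 to 26956442 over the 5 libraries. Levels are given in CPM, the count scaled to library size, normalized by the trimmed mean of M-values (TMM), and fold changes as log2 of CPM plus 0.5, BLU minus untreated. Of 40402 genes in the table, 17647 had at least 1 CPM in at least 1 of the 5 libraries and were compared. With 1 library per condition there is no replicate check, no p-value is given, and a difference describes these 2 libraries. In RNA from whole cultures, fewer cells of a type and less RNA per cell cannot be told apart. The 95% intervals below are exact binomial (Clopper-Pearson) intervals of the ratio of the TMM-scaled counts, without the 0.5 CPM, and cover counting error only, as do the floors of 3 counts, which correspond to 0.109 CPM in BLU and 0.113 CPM in untreated cells.

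The epithelial identity of the cells could be read in both libraries. All 10 markers of mammary carcinoma epithelium were compared, and their summed level was 1355 CPM in untreated cells and 1062 CPM in BLU. Krt18, a simple epithelial keratin, was at 572.9 CPM in untreated cells and 458.3 CPM in BLU, Epcam, an epithelial adhesion molecule, at 68.97 and 52.74 CPM, and the basal regulator Trp63 at 2.33 and 0.58 CPM. Markers of other cell types were low. The 9 lymphocyte markers summed to 1.65 CPM in untreated cells and 2.54 CPM in BLU, the 10 myeloid markers to 15.2 and 13.8 CPM, the 7 endothelial markers to 11.3 and 10.5 CPM, the 5 adipocyte markers to 1.32 and 0.218 CPM and the 6 muscle markers to 5.49 and 5.82 CPM. The 10 fibroblast markers summed to 95.8 and 89.5 CPM, nearly all of it the growth factor receptor Pdgfra, and 4 of the 10 had no count in BLU. The 7 neuron markers summed to 51.0 and 52.6 CPM, mostly the microtubule protein Map2. Of the 5 red cell markers, the 4 globin genes had no count in BLU and Alas2, the first enzyme of heme synthesis in red cells, was at 13.5 CPM in untreated cells and 30.6 CPM in BLU.

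Most genes differed little. The median log2 fold change over the 17647 genes was -0.006 and the median of its size 0.329. A log2 fold change above 1 or below -1 was found for 1817 genes (10.3%), of which 998 were higher in BLU (5.66%) and 819 lower (4.64%). The 95% counting interval lay wholly past the threshold for 633 of the higher and 564 of the lower genes. Many of the 1817 genes were near the detection limit. Among the 10049 genes with at least 10 CPM in BLU or untreated cells, 316 were past the threshold (3.14%), 254 of them higher (2.53%) and 62 lower (0.617%). Among the 2602 genes with at least 100 CPM, 68 were past it (2.61%), 64 higher (2.46%) and 4 lower (0.154%). The well expressed part of the transcriptome thus held many more large increases than large decreases in BLU.

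**Figure D1:**
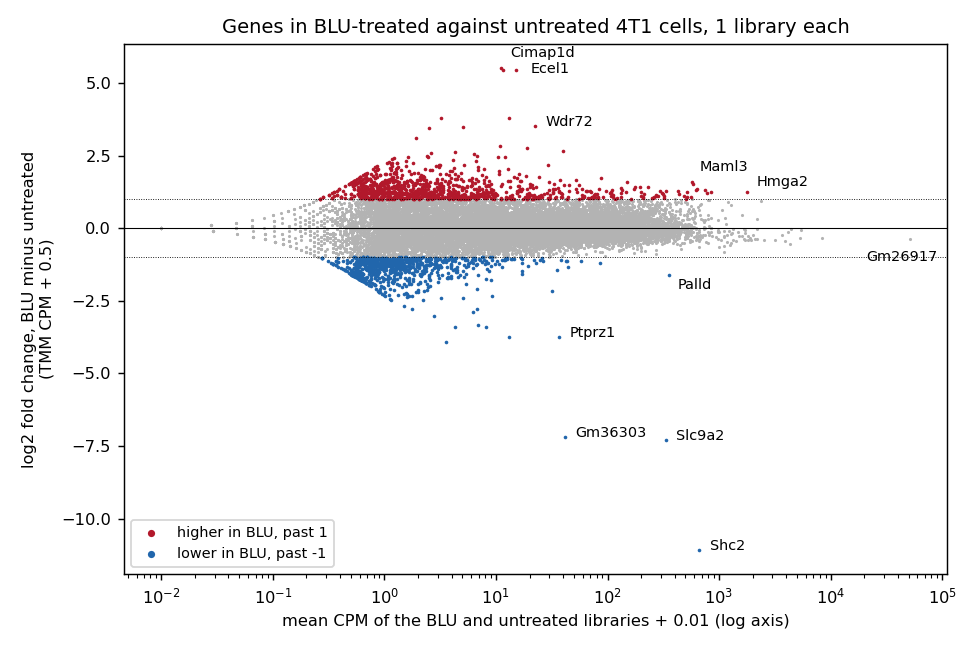
Log2 fold change of each of the 17647 genes, BLU minus untreated, on TMM-normalized CPM plus 0.5 (vertical axis), against its mean CPM in the 2 libraries plus 0.01 on a log axis (horizontal axis). Grey points lie between log2 fold changes of -1 and 1 (dotted lines), red points above it (998) and blue points below it (819), and named points mark Shc2, Slc9a2, Gm36303 and Ptprz1 far below the cloud and Cimap1d, Ecel1 and Wdr72 above it.

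The genes farthest down in BLU were a receptor adaptor, an ion exchanger and a noncoding RNA that the untreated library alone carried at a high level. Shc2, a neuronal member of the Shc adaptors that link receptor tyrosine kinases to Ras, had 35169 counts (1322 CPM) in untreated cells and 3 counts in BLU. The 95% interval of its log2 ratio ran from -15.84 to -12.02. The level was 0.037 CPM in BLA and 0 in BLA-A and BLU-A, so BLU did not stand apart from the other treated libraries. Slc9a2, a plasma membrane sodium-proton exchanger, was at 658.2 CPM in untreated cells and 3.67 CPM in BLU, with 3.07 to 4.45 CPM in the other treated libraries. The noncoding gene Gm36303 had 2201 counts in untreated cells and 2 in BLU (interval -13.20 to -8.30). All 3 genes are on different chromosomes, chromosome 10 for Shc2, 1 for Slc9a2 and 5 for Gm36303.

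A further 9 genes complete the 12 lowest among those with 10 CPM. Fam20a, a pseudokinase of the secretory pathway needed for enamel formation, was at 24.9 CPM in untreated cells and 1.38 CPM in BLU, a log2 fold change of -3.76. Ptprz1, a receptor tyrosine phosphatase of the glial lineage, was at 68.8 and 4.69 CPM (-3.74). Pik3cg, the catalytic subunit p110 gamma of PI3-kinase, was at 15.2 CPM in untreated cells and 0.981 CPM in BLU (-3.40), and at 0.151 CPM or less in the other treated libraries. BLU thus retained more Pik3cg than BLA, BLA-A and BLU-A. Zfp423, a zinc finger cofactor of Smad and Ebf proteins, stayed above BLA and BLA-A in both blueberry libraries, at 15.7 CPM in untreated cells, 2.69 in BLU, 0.0735 in BLA, 0.216 in BLA-A and 2.19 in BLU-A. Agtr1a, the type 1 angiotensin II receptor, was at 12.2 and 1.35 CPM (-2.78), and Stxbp6, a syntaxin-binding protein, at 52.4 and 11.5 CPM (-2.15). Lifr, the receptor of leukemia inhibitory factor, was at 11.3 CPM in untreated cells and 2.25 CPM in BLU (-2.11), and its 3.74 to 5.66 CPM in the other treated libraries placed BLU lowest of the 5. The noncoding genes Gm46392 and Gm36372 had log2 fold changes of -3.33 and -2.89.

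The genes farthest up showed the reverse layout, with most of the RNA in the BLU library alone. Cimap1d, which encodes a microtubule-associated protein of cilia, had no count in untreated cells and 616 counts (22.4 CPM) in BLU, at least 199-fold higher against a floor of 3 counts in the untreated library. Cimap1d had no count in BLA and BLU-A and 0.0432 CPM in BLA-A. Ecel1, a neuronal relative of the endothelin-converting enzymes, was at 0.188 CPM in untreated cells and 29.9 CPM in BLU (interval of the log2 ratio 6.09 to 8.94), and at 0.0756 CPM or less in the other libraries. Gm57791, a predicted gene, had 1 count in untreated cells and 633 in BLU (interval 6.77 to 14.56). Wdr72, a WD-repeat protein of vesicle traffic in enamel-forming cells, was at 3.16 CPM in untreated cells and 41.4 CPM in BLU (log2 fold change 3.52), against 0.0864 to 0.404 CPM in BLA, BLA-A and BLU-A. Adcy2, an adenylyl cyclase that makes cyclic AMP, was at 2.29 and 19.4 CPM (2.83), with 6.88 CPM in BLU-A as the next highest level. Zfp442, a KRAB-type zinc finger gene, was at 10.5 and 68.5 CPM (2.65) and at 8.99 to 17.9 CPM elsewhere.

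Of the 12 highest genes, 4 were also close to the BLU level in another treated library. Gm51487 was higher still in BLA, at 24.0 CPM against 20.7 CPM in BLU and 3.38 CPM in untreated cells. Gm53858 (24.6 CPM in BLU, 1.31 CPM in untreated cells), Gm15713 (11.9 and 1.73 CPM) and Lrrtm2, a synaptic adhesion protein (17.9 and 2.89 CPM), each had a level in another treated library within a log2 difference of 1 of BLU. The predicted noncoding genes Gm30618 (33.6 CPM in BLU, 4.51 CPM in untreated cells) and Gm30068 (11.2 and 1.5 CPM) were at 0.919 CPM or less in the other treated libraries.

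**Figure D2:**
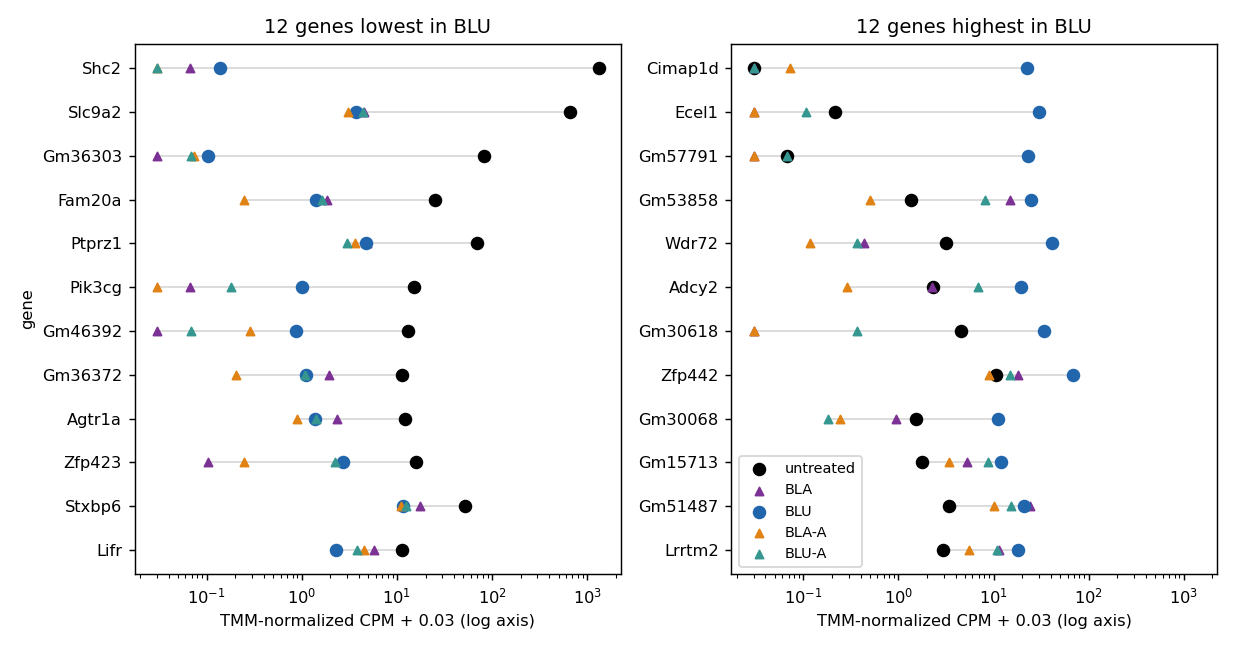
TMM-normalized CPM plus 0.03, on a log axis, of the 12 genes lowest (left) and the 12 highest (right) in BLU against untreated cells among genes with at least 10 CPM in either library; each row is a gene, large circles are the untreated (black) and BLU (blue) libraries and triangles the BLA, BLA-A and BLU-A libraries, 1 library each. On the left the black circle stands alone at the right, from 11.3 CPM for Lifr to 1322 CPM for Shc2, and on the right the blue circle stands alone for Cimap1d, Ecel1, Gm57791 and Wdr72.

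Cimap1d and Shc2 are direct neighbours. On GRCm39, Shc2 lies on the minus strand of chromosome 10 from 79453760 to 79473769 and Cimap1d on the same strand from 79475343 to 79481880, so that Cimap1d ends 1573 bp before Shc2 begins. The untreated library had 35169 counts in Shc2 and 0 in Cimap1d, and the BLU library 3 counts in Shc2 and 616 in Cimap1d. The other expressed genes within 100 kb of either did not follow either pattern. Among them, Mier2, a chromatin corepressor, had a log2 fold change of 0.41 and Plpp2, a lipid phosphate phosphatase, -0.37. On the far side of Cimap1d, Cdc34, a ubiquitin-conjugating enzyme, was at 22.8 CPM in untreated cells and 11.0 CPM in BLU (-1.02), Tpgs1, a tubulin polyglutamylase subunit, at 9.85 and 5.27 CPM (-0.84), Polrmt, the mitochondrial RNA polymerase, at 8.76 and 4.94 CPM (-0.77), and Bsg, a cell surface glycoprotein, at 74.2 and 58.2 CPM (-0.35).

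Within 100 kb of Ecel1, the translation factor Eif4e2 was at 91.9 CPM in untreated cells and 80.6 CPM in BLU (-0.19), Dis3l2, an exonuclease, had a log2 fold change of 0.41, and Chrnd, a muscle acetylcholine receptor subunit, went from 0.977 CPM to no count. Beside Slc9a2, Mfsd9 had a log2 fold change of -0.20. Tmem182, read at a low level beside the same gene, was lower in each treated library as Slc9a2 was, with 1.31 CPM in untreated cells, no count in BLU and 0.216 to 0.662 CPM in the other 3. Beside Gm36303, the ubiquitin ligase Rchy1 was at 44.9 and 49.2 CPM (0.13).

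Measured against all 4 other libraries at once, BLU was the highest by a log2 difference of over 1 for 137 genes and the lowest for 33. With at least 10 CPM in BLU or untreated cells these numbers were 9 and 1. The 9 genes were Ecel1, Gm57791, Cimap1d, Wdr72, Gm30618, Gm30068, Zfp442, Necap1 and Adcy2. Necap1, an endocytosis adaptor of clathrin-coated vesicles, was at 10.4 CPM in untreated cells, 48.3 CPM in BLU and 11.7 to 17.2 CPM in the other libraries. Its neighbour Clec4a3, a lectin of myeloid cells lying 63477 bp away on the same strand, went the same way, with 4.47 CPM in BLU against 0.413 CPM in untreated cells and 0.378 to 0.605 CPM elsewhere. Other neighbours of Necap1 did not, namely Foxj2, 29100 bp away on the same strand (26.3 and 22.2 CPM, -0.24), and Slc2a3 (-0.18). Clec4a3, Foxj2 and Slc2a3 were chosen after their values were seen. Entpd6, a nucleoside diphosphatase of the secretory pathway, was at 20.9 CPM in BLU and at most 10.3 CPM in another library.

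The 1 gene below all others by that margin was Pias3, a SUMO ligase that restrains Stat3, at 14.1 CPM in untreated cells, 6.14 CPM in BLU and 14.5 to 20.7 CPM in the other treated libraries. Med18, a subunit of Mediator, was at 13.2 CPM in untreated cells, 5.02 CPM in BLU and 10.3 to 11.5 CPM elsewhere. Lrwd1, a partner of the origin recognition complex, was at 19.8, 9.30 and 16.5 to 30.4 CPM in the same order. The next genes in this ranking were Btbd2 (log2 fold change -0.93 against untreated cells), the chromatin remodeling subunit Bcl7b (-0.82), Nipal3 (-1.01), Cdc34, Zc3hav1l (-0.65), the SAGA complex subunit Sgf29 (-1.0) and Lifr. Against all other libraries, the decreases in BLU were far smaller than the increases.

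Among abundant transcripts, the ranking hardly moved. Of the 10 genes with most counts in untreated cells, 9 were also among the 10 in BLU, where Malat1 took the place of the mitochondrial gene ND5. The predicted gene Gm26917, which had no gene type or position in the annotation used here, took 5.95% of the counts in untreated cells. In BLU its share was 4.56%, a log2 fold change of -0.37, and what RNA its reads come from was not tested. The 10 leading genes together took 10.8% of the counts in untreated cells and 8.58% in BLU. Eef1a1, the translation elongation factor, was at 9294 CPM in untreated cells and 7434 CPM in BLU (-0.32), Actb, cytoplasmic actin, at 5123 and 3544 CPM (-0.53), and Vim, the mesenchymal intermediate filament, at 3927 and 3356 CPM (-0.23). The giant scaffold protein Ahnak (-0.07) and fibronectin, Fn1 (-0.01), differed least. Malat1, a noncoding RNA of nuclear speckles, was at 1619 CPM in untreated cells and 3122 CPM in BLU (0.95).

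The increases past the threshold among genes with at least 100 CPM fell on long genes and nuclear noncoding RNAs. Maml3, a Mastermind coactivator of Notch, was at 282.3 CPM in untreated cells and 859.5 CPM in BLU (log2 fold change 1.60, interval 1.57 to 1.64) and spans 419 kb on chromosome 3. Smyd3, a lysine methyltransferase, was at 124.2 and 333.4 CPM (1.42), Rad51b, a factor of homologous recombination, at 97.1 and 258.0 CPM (1.40), Wwox, a fragile-site oxidoreductase, at 107.2 and 284.4 CPM (1.40), and Ube2e2, a ubiquitin-conjugating enzyme, at 72.5 and 191.7 CPM (1.40). These 4 genes span between 321 and 913 kb. Pvt1, the noncoding neighbour of Myc, was at 352.6 and 907.6 CPM (1.36). Each of them was higher in BLA than in BLU, so the order of these levels ran from untreated cells upward through BLU to BLA.

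Several of these genes overlap on opposite strands, and the counting could not keep them apart with certainty, because merged read pairs were counted by strand as single reads. The highest value in this set, 1.73 for 1700006J14Rik (39.7 CPM in untreated cells, 133.4 CPM in BLU), and the 1.51 of Gm51785 (301.9 and 860.0 CPM) belong to noncoding genes on the plus strand of chromosome 10 whose spans overlap Hmga2 on the minus strand. Hmga2, an oncofetal chromatin protein, was itself at 1054 CPM in untreated cells and 2519 CPM in BLU (1.26). In the same way Kirrel3os (97.8 and 249.3 CPM, 1.35) lies within the span of Kirrel3, an adhesion protein, on the opposite strand (170.2 and 419.4 CPM, 1.30). Gm51671, with no position here, was at 74.3 and 224.0 CPM (1.58).

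Across well expressed genes, the direction in BLU went with gene length. Genes with at least 10 CPM and a position in the annotation numbered 9744. Those spanning under 5 kb had a median log2 fold change of -0.35 (596 genes), those of 5 to 20 kb -0.19 (2850), of 20 to 50 kb -0.03 (3051), of 50 to 100 kb 0.13 (1747), of 100 to 300 kb 0.37 (1226) and over 300 kb 0.60 (274). Of the genes over 300 kb, 17.9% were higher in BLU past the threshold and 3.28% lower, whereas under 5 kb the shares were 2.01% and 3.69%. Spearman's rho between span and log2 fold change was 0.53 over the 9744 genes and 0.57 over the protein-coding genes among them. These values are across genes of 2 libraries. The genes share any difference in depth or base composition between these libraries and are not replicates. The same bins in the other comparisons with untreated cells, which share that library, ran from -0.41 to 0.66 in BLA, from -0.11 to 0.36 in BLU-A and from 0.20 to 0.10 in BLA-A. RNA integrity was not compared between the libraries, and its part in the trend with span was not tested.

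The pattern depended on the level of the gene. Among genes over 100 kb, those with a mean under 1 CPM in the 2 libraries had a median of -0.62 (189 genes), those of 1 to 3 CPM -0.45 (557) and of 3 to 10 CPM -0.19 (435), whereas those of 10 to 30 CPM had a median of 0.35 (265), of 30 to 100 CPM 0.43 (518) and of 100 CPM or more 0.41 (670). Long genes read at a trace level were therefore mostly lower in BLU, and long genes that 4T1 cells express well were mostly higher. Genes under 20 kb went the other way among well expressed genes, with medians of -0.17 at 10 to 30 CPM, -0.23 at 30 to 100 CPM and -0.30 at 100 CPM or more.

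**Figure D3:**
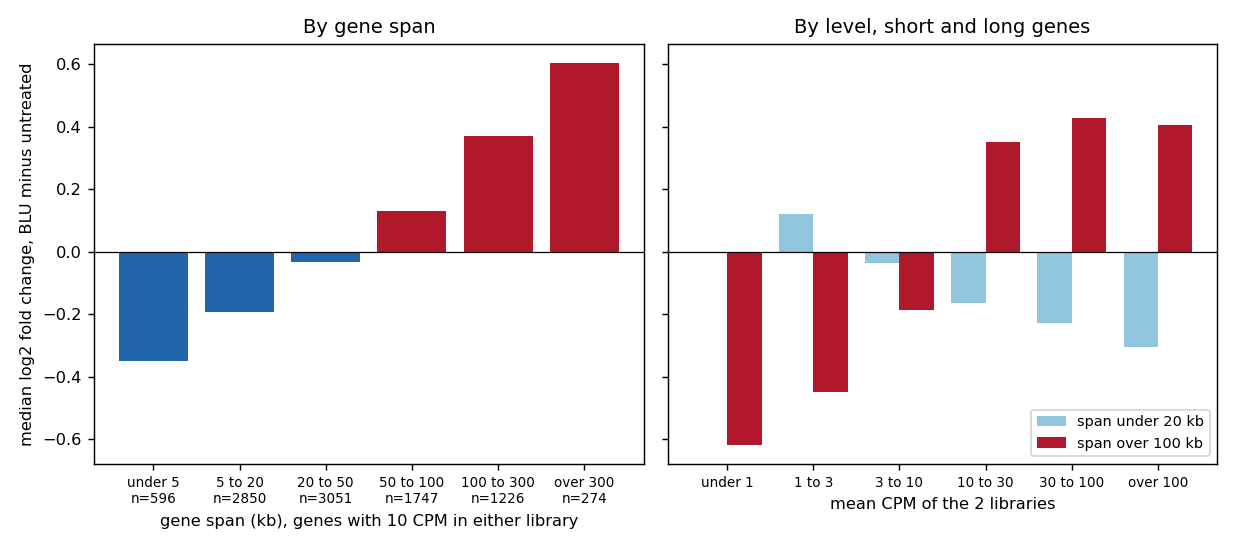
Median log2 fold change, BLU minus untreated, as bars from 0. Left, the 9744 genes with at least 10 CPM in either library by gene span in kb, where the median climbs from -0.35 under 5 kb to 0.60 over 300 kb; right, genes under 20 kb (light blue) and over 100 kb (red) by their mean CPM in the 2 libraries, where long genes change from -0.62 under 1 CPM to 0.41 at 100 CPM or more. The bars carry no error because each condition has 1 library.

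By gene type, noncoding genes moved more than coding ones. Of 773 lncRNA genes with at least 10 CPM, 111 were higher in BLU past the threshold (14.4%) and 6 lower (0.776%), with a median of 0.20. Of 9177 protein-coding genes, 129 were higher (1.41%) and 55 lower (0.599%), with a median of -0.02. In the list of nuclear noncoding RNAs, 30 of 35 were compared and 3 were higher past the threshold, namely Pvt1, Neat1 and Dleu2. Neat1, the architectural RNA of paraspeckles, was at 193.4 CPM in untreated cells and 476.2 CPM in BLU (1.30, interval 1.25 to 1.35), Dleu2, the host of the miR-15a and miR-16 precursors, at 79.3 and 162.8 CPM (1.03), and Kcnq1ot1, an imprinted antisense RNA, at 101.4 and 201.2 CPM (0.99). The 1 member lower past the threshold was Rn7s2, a 7SL copy, at 3.61 and 0.981 CPM, and Rn7sk, the RNA that holds the elongation factor P-TEFb, was at 91.6 and 58.8 CPM (-0.63). The median of the list was 0.02, which turned to -0.02 with DESeq2 size factors.

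Replication-dependent histone genes were the list with the lowest median. These genes are transcribed in S phase from clusters on a few chromosomes, lack introns, and end in a stem-loop in place of a poly(A) tail. Of 59 listed, 52 were compared, and 21 were lower in BLU past the threshold, none was higher, and 50 were below 0. The median was -0.88, against -0.006 over all genes. Among the 42 with at least 10 CPM, 16 were lower past the threshold, against 0.617% of all genes at that level. Of the 16 genes with at least 10 CPM that were lower past the threshold on chromosome 13, which carries 44 of the 52, 14 were histone genes. The summed level of the list was 5075 CPM in untreated cells and 3007 CPM in BLU.

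All classes of histone took part. H4c4, the most abundant, was at 1403 CPM in untreated cells and 795.9 CPM in BLU (-0.82, interval -0.84 to -0.79). H2bc18 was at 357.6 and 191.8 CPM (-0.90), the linker histone H1f5 at 221.6 and 122.5 CPM (-0.85) and H2ac20 at 120.6 and 52.3 CPM (-1.20). The lowest values were -2.20 for H2ac23 (3.46 and 0.364 CPM), -1.80 for H3c3 (14.4 and 3.78 CPM) and -1.76 for H3c2 (12.7 and 3.42 CPM). H3c10 and H4c16, at 0.04 and 0.02, were the 2 above 0. Copies of a histone class are nearly identical in their coding sequence and reads mapping to several places were filtered by mapping quality, so the share of each copy is uncertain and the sum over the list is firmer. In the other comparisons with untreated cells, which share that library, the median of the list was -1.10 in BLA, -0.17 in BLU-A and 0.50 in BLA-A.

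**Figure D4:**
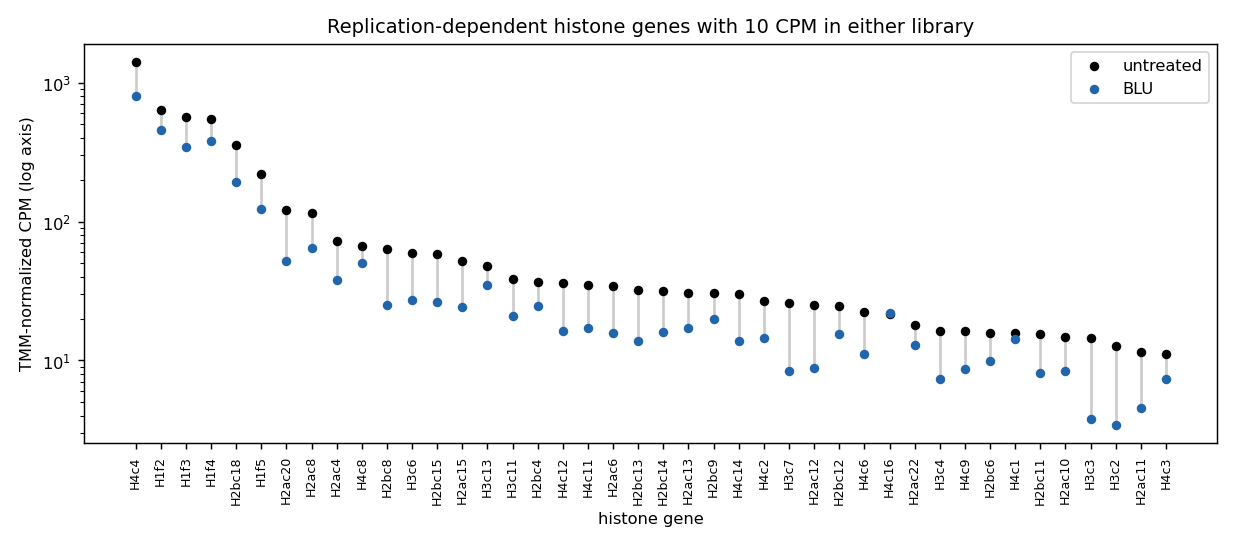
TMM-normalized CPM (log axis) of the replication-dependent histone genes with at least 10 CPM in either library, ordered by their level in untreated cells (black points) and joined by grey lines to their level in BLU (blue points), 1 library each. The blue point lies below the black one for each gene shown but H4c16, from H4c4 (1403 and 795.9 CPM) down to H3c2 (12.7 and 3.42 CPM).

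The promoters of histone genes are shown because these genes moved together. Sequences from 250 bases before to 50 bases after the start were available from RefSeq (build GRCm38.p6) for 46 of the 52, and 3 motifs were searched on both strands, the TATA box (TATAAA), the CCAAT box (CCAAT) and the GC box (GGGCGG), which do not overlap in their letters. The TATA box was found in 58.7% of the 46, against 14.2% of all 27025 promoters of this length, the CCAAT box in 84.8%, against 37.9%, and the GC box in 37.0%, against 35.9%. Among the 7889 promoters of genes with at least 10 CPM, the shares were 6.91% for the TATA box, 39.1% for the CCAAT box and 65.5% for the GC box. Among the 19 with a log2 fold change below -1, the TATA box was found in 12, the CCAAT box in 17 and the GC box in 8, and among the other 27 in 15, 22 and 9. The first 4 sequences belong to genes among the lowest with at least 10 CPM and the last 2 to H4 genes that changed less, and capitals mark the motifs on either strand.
H3c3 (chr13:23745472-23745771, minus strand): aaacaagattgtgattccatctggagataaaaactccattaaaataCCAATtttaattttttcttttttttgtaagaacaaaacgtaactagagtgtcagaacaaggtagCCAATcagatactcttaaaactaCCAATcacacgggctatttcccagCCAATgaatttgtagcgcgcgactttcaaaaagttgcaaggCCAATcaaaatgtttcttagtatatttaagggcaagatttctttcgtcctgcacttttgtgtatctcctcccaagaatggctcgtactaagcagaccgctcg
H3c2 (chr13:23752095-23752394, plus strand): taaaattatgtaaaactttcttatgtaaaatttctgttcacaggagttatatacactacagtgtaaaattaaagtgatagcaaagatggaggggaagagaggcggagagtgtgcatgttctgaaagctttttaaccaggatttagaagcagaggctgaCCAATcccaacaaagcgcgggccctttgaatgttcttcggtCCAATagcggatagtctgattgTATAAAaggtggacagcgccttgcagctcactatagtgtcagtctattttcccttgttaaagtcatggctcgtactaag
H2ac12 (chr13:22035594-22035893, minus strand): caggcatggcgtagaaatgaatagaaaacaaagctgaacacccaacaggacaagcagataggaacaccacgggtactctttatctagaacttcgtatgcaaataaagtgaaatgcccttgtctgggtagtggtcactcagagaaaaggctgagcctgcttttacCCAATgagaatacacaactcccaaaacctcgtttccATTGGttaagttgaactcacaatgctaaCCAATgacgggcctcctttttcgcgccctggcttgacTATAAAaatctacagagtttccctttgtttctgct
H2bc8 (chr13:23571150-23571449, plus strand): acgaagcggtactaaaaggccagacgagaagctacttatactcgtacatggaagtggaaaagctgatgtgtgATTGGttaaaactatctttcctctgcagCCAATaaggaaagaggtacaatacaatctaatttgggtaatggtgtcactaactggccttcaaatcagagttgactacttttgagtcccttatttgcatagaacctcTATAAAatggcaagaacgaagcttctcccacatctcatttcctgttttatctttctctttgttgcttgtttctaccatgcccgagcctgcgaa
H4c1 (chr13:23761200-23761499, minus strand): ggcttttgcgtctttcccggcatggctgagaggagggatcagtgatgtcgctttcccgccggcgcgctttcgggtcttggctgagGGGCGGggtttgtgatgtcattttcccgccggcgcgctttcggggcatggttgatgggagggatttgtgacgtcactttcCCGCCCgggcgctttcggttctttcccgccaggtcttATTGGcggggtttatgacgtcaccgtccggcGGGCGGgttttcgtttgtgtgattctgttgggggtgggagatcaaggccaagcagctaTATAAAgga
H4c8 (chr13:23530794-23531093, plus strand): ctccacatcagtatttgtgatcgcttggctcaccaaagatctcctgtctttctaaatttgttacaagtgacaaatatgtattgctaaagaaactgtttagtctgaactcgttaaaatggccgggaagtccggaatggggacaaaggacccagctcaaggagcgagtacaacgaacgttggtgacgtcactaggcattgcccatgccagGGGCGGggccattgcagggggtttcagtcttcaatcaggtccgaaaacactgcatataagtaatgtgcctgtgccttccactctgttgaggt

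The CCAAT box matched 5 times in H3c3, 2 times in H3c2, 3 times in H2ac12 and 2 times in H2bc8. The GC box matched in none of those 4, 3 times in H4c1 and 1 time in H4c8, a contrast of these 6 examples that the shares over all histone genes do not show. H4c1 was at 15.7 CPM in untreated cells and 14.3 CPM in BLU, and H4c8 at 67.2 and 50.2 CPM. Such matches are descriptions of the letters and not of bound sites.

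For the lists that follow, the shares of all genes stand as background. Of all genes compared, 50.5% lay below 0, and of those with at least 10 CPM and a span under 5 kb 83.6% did, of 5 to 20 kb 73.8% and of 100 to 300 kb 12.4%, so that a list of short genes lies mostly below 0 and a list of long genes mostly above it. Past the threshold lay the 5.66% higher and 4.64% lower given above, and lists with 1 or 2 such members in about 30 are near these shares.

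Most genes of protein synthesis and energy supply lay below 0, with few members past the threshold. Of 82 cytosolic ribosomal protein genes, 68 were lower in BLU and none was past a log2 fold change of 1, with a median of -0.33, a share close to that of all well expressed genes under 5 kb. They ranged from -0.99 for Rps23 (40.2 CPM in untreated cells, 20.0 CPM in BLU) to 0.88 for Rpl13 (45.5 and 84.3 CPM), and their sum was 11040 CPM in untreated cells and 8494 CPM in BLU. Many of these genes have processed copies elsewhere in the genome, which makes single members uncertain. Of 35 genes of ribosome biogenesis, 33 were lower (median -0.30), from the 18S processing factor Rrp12 at -0.65 to fibrillarin, Fbl, at 0.13. Of 31 translation factors, 27 were lower (median -0.26), with Tpt1, a growth-related tumor protein, at 344.4 and 204.7 CPM (-0.75). Nucleolin, Ncl, was at 2075 and 1586 CPM (-0.39).

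Of 75 nuclear genes of the respiratory chain, 68 were lower in BLU (median -0.37). Ndufs6 and Ndufs8, subunits of complex I, were at -0.95 and -0.92, and Cox8a, a subunit of cytochrome oxidase, at 109.3 CPM in untreated cells and 62.1 CPM in BLU (-0.81). Atp5mc1, a subunit of the ATP synthase ring read at 1.01 and 2.58 CPM, was the 1 member past the threshold, at 1.02. Of the 13 genes of proteins made in mitochondria, 7 were compared, and the other 6 had no count in untreated cells or in BLU. The 7 compared were all lower, from -0.50 for ND1 (925.8 and 652.4 CPM) to -0.19 for ND4. Of 31 proteasome subunits, 30 were lower (median -0.33), with Psmb6 at -0.74 and Psmd14 at 0.36 as the ends. None of the 31 passed the threshold.

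**Figure D5:**
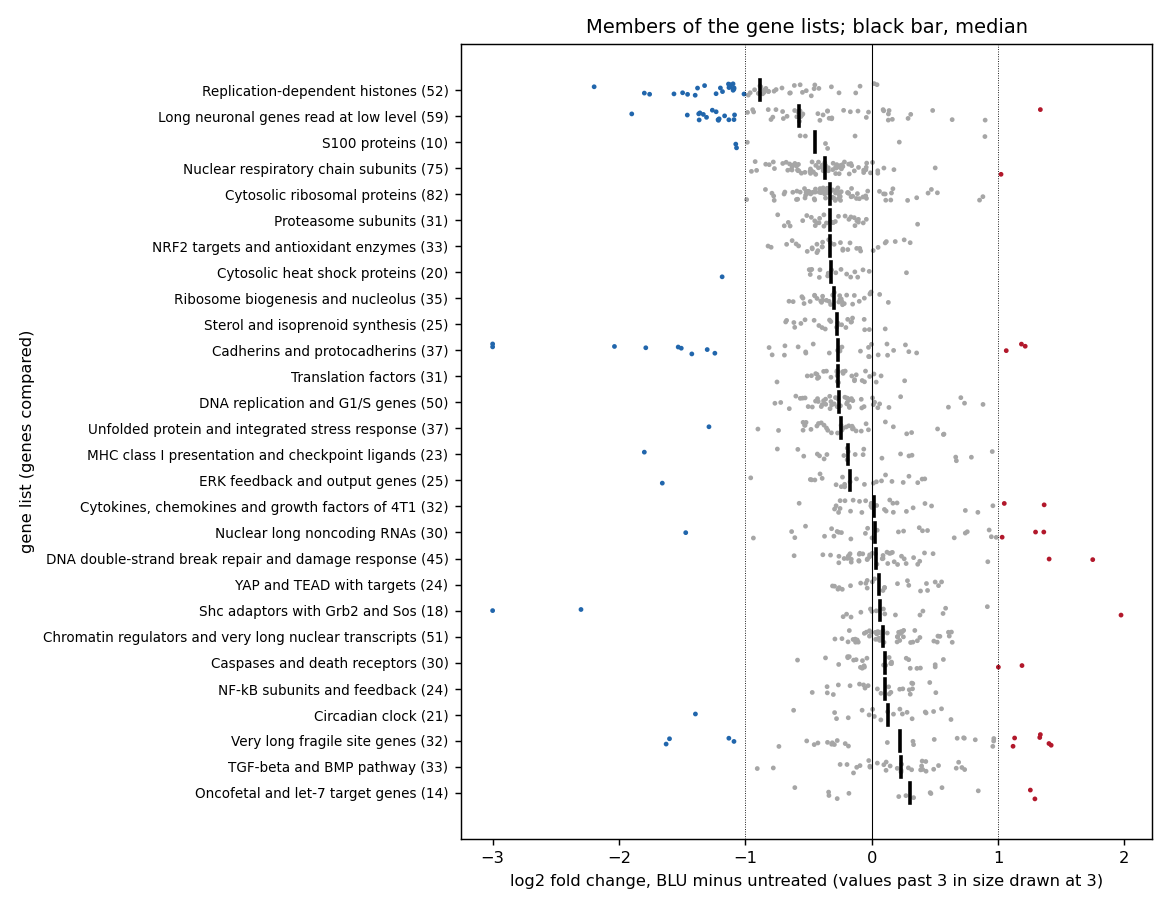
Log2 fold change, BLU minus untreated (horizontal axis), of each member of 28 gene lists, those with the 16 lowest and the 12 highest medians among lists with at least 10 genes compared; a point is a gene, red past 1, blue past -1, values past 3 in size drawn at 3, and the black bar is the median of the list, with the number of genes compared after its name. Replication-dependent histones have the lowest median (-0.88) and oncofetal and let-7 target genes the highest (0.30, or -0.10 with no filter on low counts).

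Stress and redox lists lay mostly below 0. Of 33 NRF2 targets and antioxidant enzymes, 26 were lower in BLU and none was past the threshold (median -0.33). Nqo1, a quinone reductase and common readout of NRF2, was at 15.7 CPM in untreated cells and 10.2 CPM in BLU (-0.60), Txn1, thioredoxin, at 161.7 and 92.9 CPM (-0.80), and Hmox1, heme oxygenase, at 3.61 and 3.92 CPM (0.11). The ends of the list were Gstm1, a glutathione transferase, at -0.82 and Abcc1, a glutathione conjugate exporter, at 0.30. Of the 14 genes around the aryl hydrocarbon receptor, 10 were compared. Their median was -0.09, or 0.08 with a filter of 10 counts in either library. The receptor Ahr itself was at 55.8 and 58.6 CPM, and the target Cyp1b1 at 48.1 and 39.5 CPM (-0.28). The 1 member past the threshold was the receptor's repressor, Ahrr, with 9 counts in untreated cells and 40 in BLU (interval of the log2 ratio 1.04 to 3.33).

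Of 20 cytosolic heat shock genes compared, 19 were lower (median -0.32). Cryab, a small heat shock protein, was the member past the threshold, at 12.0 CPM in untreated cells and 5.02 CPM in BLU (-1.18). Of 37 genes of the unfolded protein and integrated stress responses, 30 were lower (median -0.24), from Sdf2l1, an ER chaperone cofactor, at 3.38 and 1.09 CPM (-1.29), to Atf3, a stress-induced transcription factor, at 43.2 and 64.5 CPM (0.57), and Ddit3, which encodes CHOP, was at 14.1 and 21.2 CPM (0.57). Of 34 genes of glycolysis and the hypoxia response, 3 were lower past the threshold, namely Ankrd37 (2.89 and 0.654 CPM), the lactate exporter Slc16a3 (1.95 and 0.582 CPM) and the vasodilator peptide gene Adm (18 counts and 0). The median of that list was -0.06.

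No gene of lipid synthesis passed the threshold. Of 25 genes of sterol and isoprenoid synthesis, 24 were below 0 (median -0.28). Mvd, which decarboxylates mevalonate diphosphate, was at 8.46 CPM in untreated cells and 5.09 CPM in BLU (-0.68), and Tm7sf2, a sterol reductase, at 4.92 and 5.34 CPM (0.11). Of 15 genes of fatty acid synthesis, 11 were below 0 (median -0.17), from the desaturase Scd1 at 175.0 and 118.4 CPM (-0.56) to Acaca, the acetyl-CoA carboxylase gene (0.41). Among 18 metallothioneins and zinc transporters, Slc39a3 (4.32 and 1.53 CPM) and Slc30a1 (2.37 and 0.872 CPM) were lower past the threshold. Of 21 genes of iron handling none passed it, and the ferritin heavy chain, Fth1, was at 1499 and 1041 CPM (-0.53).

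Cell cycle genes moved in a narrow range. Of 50 genes of DNA replication and the G1/S step, 39 were lower in BLU (median -0.26) and none was past the threshold. Gins2, a helicase subunit, was at 22.3 CPM in untreated cells and 12.9 CPM in BLU (-0.77), and Cdc6, an origin licensing factor, at 70.4 and 44.6 CPM (-0.65). At the other end were E2f3, an S phase transcription factor (0.88), Prim2, a primase subunit (0.74), Pola1, the catalytic subunit of polymerase alpha (0.71), and Cdk6, a G1 kinase (0.61). Of 40 mitotic genes, 30 were lower (median -0.14), from Cdc20, the activator of the anaphase complex, at 81.8 and 52.5 CPM (-0.63), to Ccnf, cyclin F, at 72.0 and 107.1 CPM (0.57). In the list of double-strand break repair, 45 of 47 genes were compared, 2 were higher past the threshold and the median was 0.03, which turned to -0.02 with DESeq2 size factors. The 2 were Nhej1, the XLF factor of end joining, at 3.42 and 12.7 CPM (1.75), and Rad51b, while Xrcc4, another end-joining factor, was at 37.7 and 71.8 CPM (0.92) and Lig4, its ligase, at 10.0 and 6.36 CPM (-0.61).

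Death and survival lists had few members past the threshold, at shares near those of all genes. Of 27 p53 targets compared, none passed the threshold, and Bbc3, the BH3 protein Puma, was at 6.54 CPM in untreated cells and 10.1 CPM in BLU (0.60). Of 17 Bcl2 family genes, Bik, a BH3 protein read at 1.69 and 0.400 CPM, was lower past the threshold. Bcl2, the founding survival gene, which spans 176 kb, was at 136.7 and 254.9 CPM (0.90), and Bcl2l11, which encodes Bim, at 129.3 and 178.7 CPM (0.47). Of 30 caspases and death receptor genes, the inflammasome genes Casp1 (1.5 and 4.07 CPM, 1.19) and Pycard (4.25 and 9.01 CPM) were higher past the threshold.

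Among signaling lists, the adaptors, the receptor tyrosine phosphatases and the kinases held the largest single differences. Beside Shc2, the neuronal adaptor Shc3 went from 57 counts in untreated cells to 1 in BLU (interval of the log2 ratio -11.21 to -3.35). Gab3, a docking protein of receptor signaling, was at 4.06 CPM in untreated cells and 17.4 CPM in BLU (1.97), and Gab2 at 38.4 and 72.8 CPM (0.92). Of the 18 members of that list 1 was higher and 2 were lower past the threshold, with a median of 0.06. Of 43 genes of PI3K, AKT, mTOR and JAK-STAT signaling, Pik3cg and Mapk10 (the neuronal kinase JNK3, 5.75 and 0.691 CPM, -2.39) were lower past the threshold, and the stress kinase gene Mapk8 was at 0.84. Of 38 receptor tyrosine kinases and ErbB ligands, 2 were higher past the threshold, namely the ligands Epgn (0.263 and 1.34 CPM) and Egf (0.677 and 2.07 CPM), and 3 were lower, namely Ntrk3 (4.29 and 1.42 CPM), Nrg3 (7.70 and 3.31 CPM) and Ros1 (1.77 and 0.582 CPM). Among 18 receptor tyrosine phosphatases and their ligands, Ptprk, an adhesion phosphatase, was at 331.1 and 696.1 CPM (1.07) and the 4 lower ones included Ptprz1, Ptprh (1.13 CPM and no count) and Ptpro (7.44 and 2.83 CPM).

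The TGF-beta and BMP list had one of the highest medians, 0.23, with 23 of 33 genes above 0 and none past the threshold. The receptors Acvr1 (86.7 CPM in untreated cells, 144.8 CPM in BLU, 0.74) and Acvr2a (0.71), the ligase Smurf1 (0.69) and the effector Smad3 (417.8 and 664.7 CPM, 0.67) led it. Its lowest members were the BMP targets Id1 (11.1 and 5.71 CPM, -0.91) and Id3 (28.2 and 16.3 CPM, -0.78). In the Notch list, 2 of 22 genes passed the threshold, Maml3 and Maml2 (426.7 and 1074 CPM, 1.33), both Mastermind coactivators, and Rbpj, the DNA-binding factor of the pathway, was at 283.0 and 526.6 CPM (0.89). The receptor Notch3 (1.47 and 0.727 CPM, -0.68) and Nrarp, a feedback target (33.6 and 23.4 CPM, -0.51), were lower, and the median of the list was -0.06. In the Wnt list, 2 of 37 genes were higher and 3 lower past the threshold, close to what the shares of all genes would give. Wnt2b was at 5.98 and 13.6 CPM (1.12), Wnt3 had 5 and 27 counts, and the lower genes were Wnt11 (1.01 CPM and no count), the inhibitor Dkk2 (2.93 and 0.691 CPM) and the receptor Fzd4 (9.51 and 3.71 CPM). None of 24 YAP and TEAD genes passed the threshold, with ends at -0.31 for Tead2 and 0.55 for Crim1.

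Among adhesion and matrix lists, the cadherins held the most genes past the threshold. Of 37 cadherins and protocadherins, 9 were lower past the threshold and 3 higher, with a median of -0.27. Of all genes compared, 4.64% were lower and 5.66% higher past the threshold. Among all genes over 100 kb, the share lower was 31.2% at a mean under 1 CPM, 22.8% at 1 to 3 CPM and 10.8% at 3 to 10 CPM. The cadherins were not matched for span and level, so whether their count is particular to the family was not tested. Dsg3, a desmosomal cadherin, had 188 counts in untreated cells and 0 in BLU, and Cdh8 and Cdh11, classical cadherins of type II, were at 8.19 and 0.327 CPM and at 2.59 and 0.254 CPM. The 3 higher ones, Celsr3, Cdh26 and Cdh19, were each under 1.5 CPM in BLU. Of 43 collagens, laminins, integrins and matrix genes, Col12a1 (5.71 and 2.14 CPM), Lama1 (1.54 and 0.218 CPM) and Lama4 (1.13 and 0.182 CPM) were lower past the threshold and Postn, periostin, was higher (0.338 and 1.71 CPM). The collagen receptor Itga2 was at 216.3 and 344.7 CPM (0.67). Of 29 matrix proteases and inhibitors, Adam12 was higher (37.0 and 74.9 CPM, 1.01) and Mmp24 (8.23 and 2.44 CPM) and Adamts5 (1.24 and 0.364 CPM) lower.

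Palld, which encodes the actin-bundling protein palladin, was the largest change of the actin list, at 532.5 CPM in untreated cells and 176.0 CPM in BLU (-1.59, interval -1.64 to -1.55). It spans 391 kb and so ran against the direction of most well expressed genes of that length. The other 42 genes of the list stayed within the threshold, from Actb at -0.53 to Tpm2 at 0.78. Among 26 EMT regulators and epithelial genes, Prrx1, a mesenchymal homeobox gene, was the 1 past the threshold (21.5 and 52.6 CPM, 1.27), Zeb2 was at 0.55 and Snai1 at -0.42. Trp63 was the 1 member past the threshold among 24 keratins and mammary lineage genes, and Krt7 was at 229.8 and 138.6 CPM (-0.73). The S100 list had a median of -0.45 over 10 genes, of which 2 were lower past the threshold (the lowest at -1.08) and none was higher. S100a13, at 19.5 and 9.63 CPM (-0.98), fell just short of it.

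Immune and inflammatory lists had few members past the threshold, near or under the shares of all genes. Of 32 cytokines, chemokines and growth factors, Il34, a ligand of the Csf1 receptor, was at 38 CPM in untreated cells and 79.2 CPM in BLU (1.05), Cxcl2 had 8 and 43 counts, and the other 30 did not pass the threshold. Vegfc, a lymphatic growth factor, was at 40.1 and 78.5 CPM (0.96), and Csf3, the granulocyte factor that 4T1 tumors are known for, at 66.7 and 44.6 CPM (-0.57). Of 37 interferon-stimulated genes, Ifi44 was higher past the threshold (0.677 and 2.40 CPM), and of 23 genes of MHC class I presentation and checkpoint ligands, Cd86 was lower (1.24 CPM and no count) and the median was -0.19. None of 24 NF-kB genes (median 0.10) and none of 30 immediate early genes (median -0.14) passed it. Among the latter Ier3, a short immediate early gene, was lowest, at 125.1 and 64.2 CPM (-0.96).

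Very long genes divided by level here too. Of 32 very long fragile-site genes, 6 were higher past the threshold, led by Smyd3, Wwox and Lsamp (47.4 CPM in untreated cells, 120.4 CPM in BLU, 1.34), and 4 were lower, led by Negr1 (7.44 and 2.07 CPM, -1.63), Auts2 (10.7 and 3.20 CPM, -1.60) and Cntn4 (4.81 and 1.93 CPM, -1.13). Of all genes over 300 kb with at least 10 CPM, 17.9% were higher past the threshold and 3.28% lower. The 6 of 32 fragile-site genes that were higher are thus near the share of very long genes in general. Of 59 long neuronal genes, 16 were lower and 1 higher past the threshold, with a median of -0.57. All genes over 100 kb read at a low level had a large share lower past the threshold too. It was 31.2% at a mean under 1 CPM, 22.8% at 1 to 3 CPM and 10.8% at 3 to 10 CPM, so the list did not stand clearly apart from them. Lrrtm4, a synaptic adhesion gene, was at 3.53 and 0.582 CPM (-1.90), Opcml at 13.0 and 4.40 CPM (-1.46) and Unc5c, a netrin receptor, at 2.67 and 0.727 CPM (-1.37), while Lsamp was the higher one. Among oncofetal and let-7 target genes, Nr6a1 (56.3 and 138.5 CPM, 1.29) and Hmga2 were past the threshold, Igf1r was at 368.4 and 661.6 CPM (0.84), and the median of the 14 was 0.30. With no filter on low counts, which brings in members near the detection limit, that median was -0.10. Among 18 deacetylases and sirtuins, Hdac8 was higher (41.8 and 99.5 CPM, 1.24) and Hdac9 lower (9.70 and 3.89 CPM, -1.22).

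In transport, trafficking and RNA lists, the genes past the threshold were few and, apart from Slc9a2, read under 6 CPM. Of 17 sodium-proton exchangers and other pH regulators, Slc9a2, Slc9a3 (1.24 CPM in untreated cells, 0.182 CPM in BLU) and Slc16a3 were lower past the threshold. Of 30 semaphorins, plexins and neuropilins, Sema6c (0.601 and 4.00 CPM, 2.03), Sema6a (2.25 and 5.78 CPM, 1.19) and Sema3g (4 and 27 counts) were higher and Plxnb3 (23 counts and 0) lower. Of 30 ABC transporters, Abca8b was lower (3.08 and 0.218 CPM, -2.32) and Abcb9 higher (3 and 21 counts). None of 46 lysosome and autophagy genes (median -0.13), 33 genes of clathrin coats, caveolae and early endosomes (median -0.14) or 24 snoRNA host genes (median -0.16) passed the threshold. Of 50 SR and hnRNP splicing factors 1 passed it, Srsf12, read at 0.902 and 0.182 CPM, and the median was -0.04. Of 21 circadian clock genes, Npas2 was lower past the threshold (2.63 and 0.691 CPM) and the median was 0.13. The list of chromatin regulators and very long nuclear transcripts had 37 of 51 genes above 0, none past the threshold, and a median of 0.09.

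The study's text names genes for BLU in more than 1 passage. Of those it names across treatments, Nhej1, Wwox, Maml3 and Sema6c were higher and Pik3cg, Agtr1a, Hdac9, Dsg3, Mapk10 and Dkk2 lower past the threshold, with the values given above. The predicted gene Gm53967 was higher too (1.88 CPM in untreated cells, 11.3 CPM in BLU, 2.31), and the splicing factor gene Rbfox1 (16.5 and 6.25 CPM, -1.33) and the catenin gene Ctnna2 (5.94 and 2.00 CPM, -1.37) were lower. Genes that it names for the blueberry treatments differed less. Mir100hg, the host of a microRNA cluster, had a log2 fold change of 0.74, and Lgals1, galectin 1, -0.57. The osteopontin gene Spp1 was at -0.41, Ywhaz, a 14-3-3 adaptor, at -0.22, and the lysosomal protease Ctsl at -0.14. ATP6 had no count in either library. Of the latter group, Neat1 alone was past the threshold.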

How the data were processed

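Total RNA of 4T1 cells freed of ribosomal RNA was sequenced on an Illumina NovaSeq X Plus, and 1 library was made for each of the 5 conditions. The deposited table holds whole-number counts per gene, which the authors obtained by aligning reads with STAR (version not given in the sources used here) to GRCm39 and counting them on RefSeq gene features, introns included, by strand, in union mode and with a mapping quality of at least 10. The 3 columns of a condition are subsets of its library: they differed by less than sampling noise (chi-square per degree of freedom 0.250 in untreated cells and 0.246 in BLU) and were averaged, rounded and counted as 1 sample. No column was left without a sample. A separate table of the authors' fold changes and adjusted p-values and a table of enriched terms were not used.

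Genes with at least 1 CPM in 1 of the 5 libraries were kept, and CPM was computed with TMM factors over these libraries (edgeR 4.0.16, R 4.3.3). Fold changes, exact binomial intervals and lists were computed in Python 3.11.15 with numpy 2.4.6, pandas 2.3.3 and scipy 1.17.1, and DESeq2 1.42.0 gave alternative size factors. The fold calculation was tested on simulated data. Gene positions and spans came from GENCODE vM39 on GRCm39, matched by symbol for 92.6% of the genes compared. Totals of 25613778 to 26956442 counts per library limit the precision of genes with few counts. With 1 library per condition no test was possible. Other scalings, filters and pseudocounts and the omission of single columns were the alternatives tried.

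Named genes were the 12 highest and 12 lowest with at least 10 CPM in either library, the 10 highest and 10 lowest with at least 100 CPM, the 10 most abundant in each library, up to 3 members each way of the 57 gene lists past the threshold with at least 1 CPM, or otherwise the ends of a list, the 10 genes in which BLU lay farthest above and the 10 farthest below all other libraries, expressed neighbours within 100 kb of the 3 highest and 3 lowest genes, and genes the study names for BLU. Kirrel3, Clec4a3, Foxj2, Slc2a3, members of the 9 marker lists and further list members were picked with their values in view, that is, chosen after they were seen. The comparison, the lists and their members were chosen with earlier results of these data known.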

Additional observations from a re-analysis of the deposited data

How the results depend on the processing

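The number of genes past the threshold depended mostly on how low counts were treated. With 1 CPM required in both libraries, 689 genes were past it, 483 higher and 206 lower. With a pseudocount of 2 CPM the numbers were 401, 297 and 104, and with 0.1 CPM there were 2742 genes, 1271 of them lower. With no filter on low counts 1349 genes were lower, and with a filter of 10 counts in either library 1348. Counting only genes whose 95% counting interval lay wholly past the threshold left 1197, of which 633 were higher. Each of these settings acts on genes with few counts by its construction. The other scalings (total counts, DESeq2 size factors, TMM over the 2 libraries alone, total counts without the 10 most abundant genes) gave 900 to 1012 higher and 833 to 898 lower genes and moved the median of all genes by less than 0.1. Omitting single columns gave 982 to 1017 higher and 822 to 834 lower genes, which speaks only to the subsets of 1 library.

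Single genes were recomputed for 73 of the named genes, those of the rankings and those the study names for the blueberry treatments. Genes named only as list members or as neighbours were not recomputed singly, so members just past the threshold were not checked. Of the 73 genes, none past the threshold changed direction under any alternative. Fn1, at -0.01 and thus near 0, was the 1 among them whose sign changed, with no filter on low counts. Nipal3, Sgf29, Pias3, Lrwd1 and Cdc34 fell short of the threshold under at least 1 alternative. Ier3 passed it, at -1.0, with DESeq2 size factors or without the 10 most abundant genes. The median changed sign for 9 lists, namely p53 targets, kinases of PI3K and JAK-STAT signaling, receptor tyrosine kinases, double-strand break repair, cytokines, nuclear noncoding RNAs, oncofetal genes, the Bcl2 family and the aryl hydrocarbon receptor list.

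No paired analysis was possible because each condition has 1 library and the numbered columns are subsets of it, so no result comes from a test.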

Other observations

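Gene families named by their symbols differed in their share of increases. Among all genes with at least 10 CPM, 2.53% were higher in BLU past the threshold and 0.617% lower. Of 629 predicted genes with the prefix Gm at that level, 92 were higher (14.6%) and 6 lower (0.954%). That is close to the 14.4% higher and 0.776% lower of all lncRNA genes at that level, so it is not particular to the prefix. Of 227 genes with the suffix Rik, 22 were higher (9.69%) and 1 lower (0.441%). Of 30 opposite strand genes, 2 were higher (6.67%) and 0 lower. Of 216 zinc finger genes with the prefix Zfp, 2 were higher (0.926%) and 1 lower (0.463%), with a median of 0.11. Of 142 solute carriers, 3 were higher (2.11%) and 1, Slc9a2, was lower (0.704%), near the shares of all genes. Genes whose exons cover less than 5% of their span, at 10 CPM or more, had a median log2 fold change of 0.50 (670 genes, 88 higher and 15 lower past the threshold), and genes with at least 50% exonic sequence had a median of -0.24 (1622 genes).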
